A study of Mus musculus with 3 samples.

Results

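Clustered NFI sites are the deposited in vivo sites of Nuclear Factor I (NFI) whose centre lies 2 kb or less from the centre of another such site, joined into clusters. Of the 39807 deposited sites, 38625 lie on chromosomes 1 to 19, and 3527 of these (9.13%, 95% exact binomial interval 8.85 to 9.42) had a neighbour this close. They formed 1677 clusters. The other 35098 sites are called isolated here, and the closest neighbour of the median isolated site was 19384 bp away. The rule used positions alone, and the positions came from peaks called on wild-type tags.

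The tags come from 3 libraries of primary C57BL/6 mouse embryonic fibroblasts (MEF), cultured at passages 6 to 7 from embryos of 14.5 days. One library is NFI ChIP in wild-type MEF, another is NFI ChIP in NFI-C knock-out MEF, and the third is wild-type input DNA, sequenced without immunoprecipitation. Both ChIP libraries used the H300 antibody, raised against the NFI group, on formaldehyde cross-linked chromatin sheared to 1000 bp on average, and the gel cut for sequencing ran from 50 to 400 bp. The knock-out embryos lack NFI-C, while Nfia, Nfib and Nfix are not targeted, so the knock-out library is not a library without NFI. GEO's description of the knock-out library says wild-type, in conflict with its title, which was taken as right. With 1 library per condition there is no test across samples. Sites share a library and clustered sites share neighbourhoods, so they are not replicates, and every interval given is a 95% interval that covers counting error only.

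NFI proteins bind DNA as dimers. The preferred sequence is a palindrome made of a half-site, a short spacer and the reverse complement of the half-site, and a single half-site is bound more weakly. In fibroblasts the family is known for acting on promoters of collagen and other matrix genes. Sites that lie close together on DNA are a common arrangement in promoters and enhancers, where several bound proteins can act on the same gene.

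Sequences of clusters with a match to the palindrome TTGGCANNNTGCCAA are shown first, since the palindrome is the sequence that the family prefers. A match was allowed 2 mismatches at its 12 fixed bases and had to be centred within 150 bp of the site. Among the 1677 clusters, 1553 had no match at any site, 123 had a match at 1 site and 1 had matches at 2 sites. Single sites rarely had a match, at 3.54% of clustered and 3.10% of isolated sites, so few clusters could hold more than 1. That cluster lies in an intron of Angpt1, which encodes a ligand of the Tie2 receptor. The match with the fewest mismatches among the clusters named here was upstream of Ehf, an ETS transcription factor of epithelia, with 1 mismatch. The other lines are from an intergenic cluster downstream of Cdh17, from introns of Cd82 (a tetraspanin) and Orc5 (a subunit of the origin recognition complex), from Scrn3 beside Cir1, and from intergenic clusters past the ends of Reep3, an endoplasmic reticulum protein gene, and 6430527G18Rik. All are read 5′ to 3′ on the plus strand of mm9, and capitals mark the 15 bp of the match.
Angpt1 site 1, chr15:42438599-42438659: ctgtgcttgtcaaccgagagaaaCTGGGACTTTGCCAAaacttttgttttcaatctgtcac
Angpt1 site 2, chr15:42439252-42439312: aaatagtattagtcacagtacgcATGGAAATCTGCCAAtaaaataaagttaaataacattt
Cdh17 site 2, chr4:11747803-11747863: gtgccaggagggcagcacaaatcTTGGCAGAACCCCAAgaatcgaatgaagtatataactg
Cir1 and Scrn3 site 2, chr2:73151448-73151508: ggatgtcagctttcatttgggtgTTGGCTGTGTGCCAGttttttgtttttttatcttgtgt
Ehf site 2, chr2:103187575-103187635: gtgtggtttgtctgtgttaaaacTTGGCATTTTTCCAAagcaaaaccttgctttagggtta
Reep3 site 1, chr10:66383223-66383283: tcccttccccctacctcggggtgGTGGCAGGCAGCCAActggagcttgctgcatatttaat
6430527G18Rik site 1, chr12:88165334-88165394: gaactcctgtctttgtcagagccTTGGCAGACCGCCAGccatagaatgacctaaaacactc
Cd82 site 1, chr2:93275793-93275853: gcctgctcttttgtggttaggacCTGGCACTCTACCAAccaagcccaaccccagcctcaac
Orc5 site 1, chr5:22054782-22054842: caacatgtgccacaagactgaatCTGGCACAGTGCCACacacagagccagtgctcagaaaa

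The Cdh17 cluster had the most wild-type tags per site among clusters in which every site had fewer than 5 input tags. Both of its sites are shown over the 300 bp in which tags were counted, again on the plus strand of mm9, with the deposited 16 bp interval in capitals. The first held 3 wild-type tags and the second 13, and the palindrome match of the second lies 42 bp after the centre of the interval.
Cdh17 site 1, chr4:11746388-11746687: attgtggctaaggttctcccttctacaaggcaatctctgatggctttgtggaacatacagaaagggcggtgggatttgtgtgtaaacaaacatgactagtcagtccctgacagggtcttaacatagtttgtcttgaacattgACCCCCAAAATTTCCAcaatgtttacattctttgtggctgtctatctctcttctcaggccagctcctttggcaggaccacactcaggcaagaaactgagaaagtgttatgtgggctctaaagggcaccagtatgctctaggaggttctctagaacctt
Cdh17 site 2, whole window, chr4:11747641-11747940: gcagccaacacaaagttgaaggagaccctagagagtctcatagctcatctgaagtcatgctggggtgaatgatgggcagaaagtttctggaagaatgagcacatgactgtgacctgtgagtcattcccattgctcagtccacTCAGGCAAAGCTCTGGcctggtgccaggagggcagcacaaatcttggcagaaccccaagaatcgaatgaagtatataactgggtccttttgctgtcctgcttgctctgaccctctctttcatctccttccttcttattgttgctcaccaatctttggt

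Most clusters were pairs. There were 1571 clusters of 2 sites, 89 of 3 and 10 of 4, and 7 clusters held 5 or more sites, up to 21. Adjacent sites of a cluster lay 302 to 2000 bp apart, with a median of 1145 bp, and 734 of the 1850 adjacent pairs lay within 1 kb. Peaks closer than about 300 bp could not occur, because the peak caller used a vicinity range of 300 bp.

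Neighbours were denser near a site than far from it. Between 100 and 200 kb, sites had 37.7 neighbours per kb per 1000 sites (37.4 to 37.9). The density was 50.0 at 5 to 10 kb, 55.2 at 2 to 3 kb and 67.0 at 1 to 1.5 kb. It was highest at 750 to 1000 bp, with 73.1 (65.7 to 81.2), and only 28.0 (21.0 to 36.5) at 300 to 400 bp. Among sites with fewer than 5 input tags the values were 64.5 at 750 to 1000 bp and 36.9 at 100 to 200 kb, so the order was kept. The steepest part of this curve lies below the distance that defines a cluster, while the excess over far distances extended well beyond 2 kb. Sheared chromatin averaged 1000 bp, near the spacing with the highest density, but the gel cut for sequencing ran from 50 to 400 bp. The part of fragment length in this curve was not tested, nor was that of the 300 bp vicinity range of the peak caller.

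**Figure D1:**
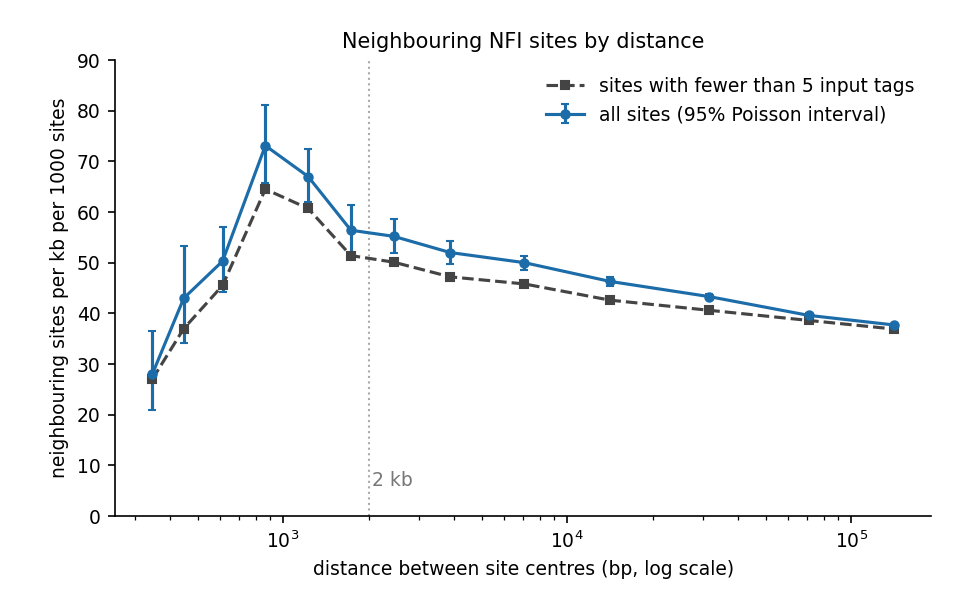
Number of neighbouring NFI sites per kb of distance per 1000 sites (y axis) against the distance between site centres (x axis, bp, log scale), for all sites with Poisson intervals and for sites with fewer than 5 input tags. The density reached 73.1 at 750 to 1000 bp and was 37.7 at 100 to 200 kb; the dotted line marks the 2 kb that defines a cluster.

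Tags are uniquely mapped reads counted by their 5′ end, at most 1 per position and strand, in 300 bp around the site centre. They are given as the fold over the genome average on chromosomes 1 to 19, which per 300 bp was 0.399 tags for wild-type ChIP, 0.373 for knock-out ChIP and 0.491 for input. The libraries held 3186944, 2978316 and 3920580 such tags. Each site rests on few tags in this count, with a median of 3 wild-type tags in both groups, and single sites cannot be ranked reliably. Only 4326 of the 38625 sites (11.2%) held 5 or more wild-type tags, although the authors' peak threshold was 5 tags per 300 bp. The counts used here therefore do not reproduce those of the peak caller, and the reason was not tested.

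Over all sites, tags were higher at clustered than at isolated sites in each library. Clustered sites had 9.09-fold the genome average in the wild-type ChIP (8.94 to 9.25) and isolated sites 8.08-fold (8.03 to 8.12), a ratio of 1.13 (1.11 to 1.15). In the knock-out ChIP the values were 3.67-fold and 1.92-fold, a ratio of 1.91 (1.85 to 1.97). In the input they were 3.95-fold and 1.64-fold, a ratio of 2.41 (2.35 to 2.48). The sites were called on wild-type tags, so the wild-type ratio is not independent of the calling and is not ranked against the others. These ratios depended strongly on which sites and tags were counted. Keeping only those that held 5 or more wild-type tags, with clusters rebuilt from them, left 3.21% clustered. The ratios were then 2.54, 9.80 and 19.2 in the wild-type, knock-out and input libraries. The 3 largest clusters, at Sfi1, stayed in this set apart from a site with 2 wild-type tags. So did the 2 clusters with the most input tags, which held 1849 of them. All of these are described below, and their part in the ratios was not tested. With all sites kept and every tag counted, the ratios were 2.66, 8.50 and 21.7. A single pair on chromosome 2 then held 61.9%, 81.6% and 89.6% of the clustered tags in the wild-type, knock-out and input libraries.

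A small number of clustered sites carried much of the input signal. Of the clustered sites, 198 (5.61%, 4.88 to 6.43) had 5 or more input tags, against 1.70% of the isolated sites and 2.06% of all sites. A knock-out tag was found at 1743 clustered sites (49.4%, 47.8 to 51.1), against 41.1% of isolated sites and 41.9% of all sites. With clusters as in the full list, 497 clustered sites (14.1%, 13.0 to 15.3) held 5 or more wild-type tags. The shares were 10.9% of isolated sites and 11.2% of all sites.

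Without the sites that had 5 or more input tags, and with clusters rebuilt from the rest, 3239 clustered and 34591 isolated sites remained. The wild-type difference was then within counting error, with 8.09-fold at clustered and 8.04-fold at isolated sites, a ratio of 1.01 (0.986 to 1.03). Knock-out tags were still more frequent at clustered sites, at 2.32-fold against 1.86-fold, a ratio of 1.25 (1.20 to 1.30). Input tags were too, at 1.53-fold against 1.30-fold, a ratio of 1.18 (1.13 to 1.23).

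Relative to input, the knock-out ChIP was at 0.929 over all clustered sites (0.895 to 0.964) and at 1.17 over all isolated sites (1.15 to 1.19), each as the fold over its own genome average. The value below 1 at clustered sites rested on few clusters, since it was 1.11 (1.07 to 1.16) without the 2 clusters with the most input tags, and with 1 site per cluster it was 1.02 (0.956 to 1.08). Leaving out sites by their input tags lowers the denominator of this ratio, so a rise in both groups follows from that choice. At the 3239 clustered sites with fewer than 5 input tags the ratio was 1.51 (1.43 to 1.60), and at the isolated sites chosen the same way 1.43 (1.40 to 1.46), so these intervals overlap. The wild-type ChIP was at 5.27 of the input (5.04 to 5.51) at these clustered sites and at 6.20 (6.11 to 6.29) at these isolated sites. The knock-out ChIP was at 0.287 of the wild-type ChIP (0.275 to 0.299) at clustered and 0.231 (0.228 to 0.234) at isolated sites. The sites were called on wild-type tags, which favours high wild-type counts in both groups. Both comparisons with the wild-type ChIP are therefore not independent of the calling, and the latter does not measure a loss in the knock-out.

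Values changed gradually around 2 kb. Among sites with fewer than 5 input tags, those with a neighbour at 1.5 to 2 kb had 8.30-fold wild-type, 2.08-fold knock-out and 1.44-fold input tags. Those just outside the rule, with a neighbour at 2 to 5 kb, had 8.05-fold, 2.10-fold and 1.42-fold. Sites with a neighbour at 1 to 1.5 kb had 2.41-fold knock-out tags (2.26 to 2.57), and sites more than 20 kb from any other had 1.74-fold (1.71 to 1.78). The wild-type value was lowest, 7.07-fold (6.55 to 7.63), where the neighbour lay within 500 bp.

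**Figure D2:**
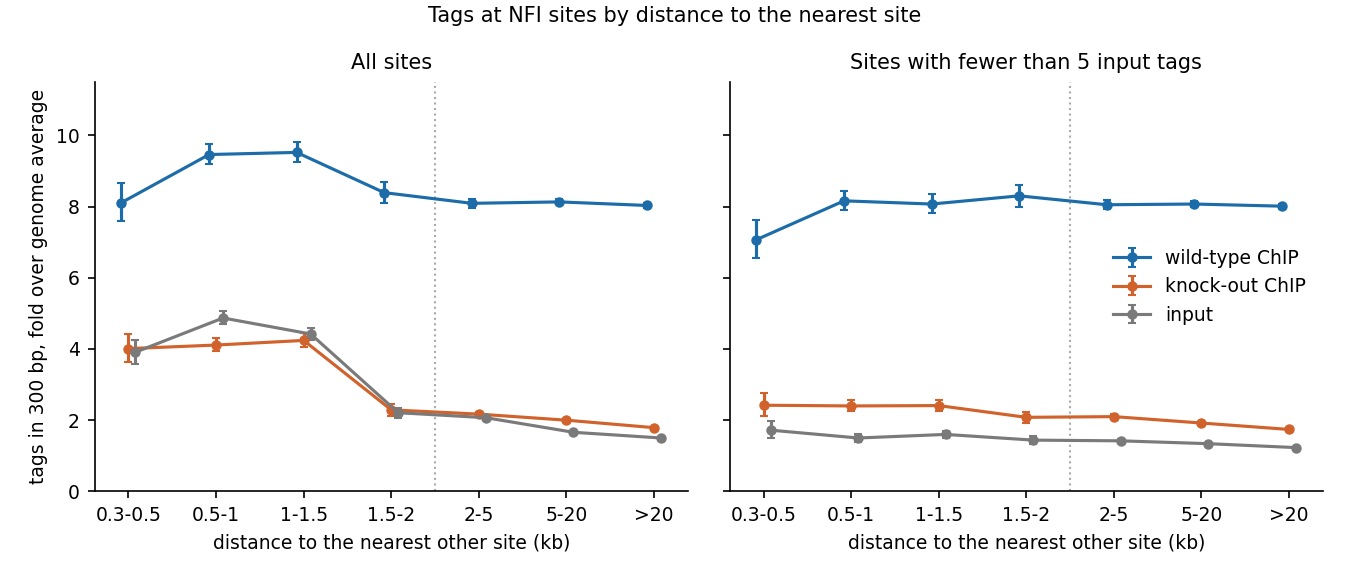
Tags in 300 bp as the fold over the genome average (y axis) against the distance to the nearest other site (x axis, kb) in the 3 libraries, with Poisson intervals, for all sites (left) and for sites with fewer than 5 input tags (right). The dotted line separates clustered from isolated sites; on the right the wild-type values of sites with a neighbour at 500 bp or more lie between 8.01-fold and 8.30-fold.

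Tags between the sites of a pair were also counted. Clusters rebuilt from sites with fewer than 5 input tags held 1488 pairs, of which 1311 had centres at least 600 bp apart. In the stretches between both windows of these 1311, wild-type tags were at 2.88-fold the genome average (2.80 to 2.97), knock-out tags at 1.82-fold and input tags at 1.84-fold. From 150 to 2000 bp outside all 1488 pairs the values were 1.70-fold, 1.47-fold and 1.59-fold. Around isolated sites over the same distances they were 1.55-fold, 1.28-fold and 1.32-fold. These zones lie at unlike distances from the sites, since the space between paired sites is close to a called site on both sides and the outside zone reaches farther from 1 site. The values are therefore given side by side, without a comparison between zones.

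Within pairs, knock-out tags at one site went only weakly with knock-out tags at the other. Among the 1488 pairs, 335 had a knock-out tag at both sites, 704 at 1 site and 449 at none. A site had a knock-out tag in 48.8% of cases when its partner had one and in 43.9% when its partner had none. The same shares for input tags were 50.0% and 48.8%. Of the 1573 clusters rebuilt from sites with fewer than 5 input tags, 461 had no knock-out tag at any site, 353 had one at every site, and 71 had as many knock-out as wild-type tags or more.

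Tags per site were higher in clusters with more sites, in the input as well as in the ChIP libraries, apart from a high input value at clusters of 3 that rests on 1 cluster on chromosome 17. Sites in pairs had 8.57-fold wild-type, 2.86-fold knock-out and 2.51-fold input tags. In the 10 clusters of 4 sites the values were 12.6-fold, 8.51-fold and 6.56-fold. In the 3 clusters of 13 or 21 sites they were 32.6-fold (30.3 to 35.1), 37.4-fold (34.8 to 40.1) and 32.6-fold (30.5 to 34.9). There the libraries no longer differed in the order seen at pairs, and all 3 clusters lie at 1 place, Sfi1. Clusters of 4 with fewer than 5 input tags at every site had 3.00 to 4.50 wild-type tags per site. The mean was 3.42 over all pairs and 5.03 over all 10 clusters of 4. The part of single places in the order by cluster size was not tested.

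**Figure D3:**
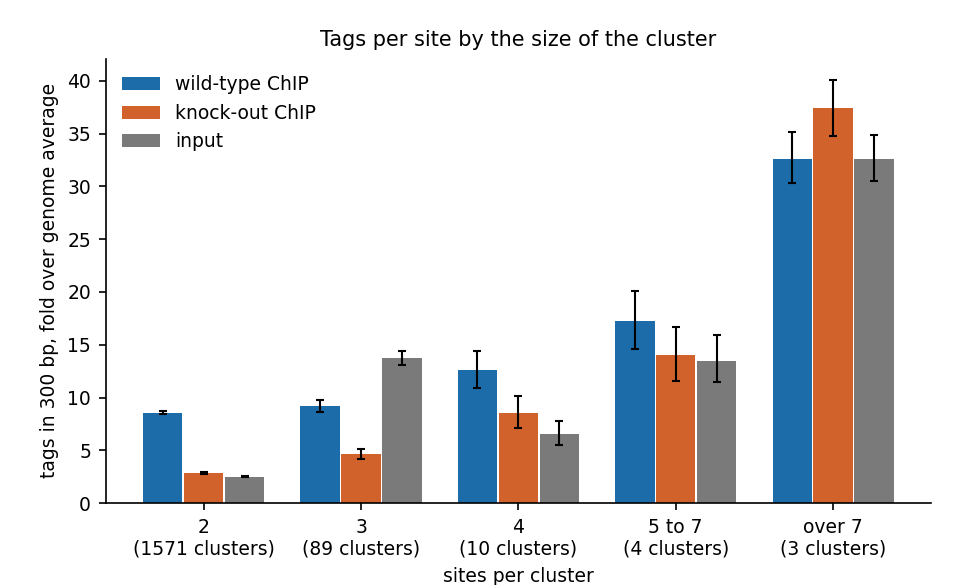
Tags in 300 bp as the fold over the genome average (y axis) by the number of sites in the cluster (x axis, with the number of clusters), in the 3 libraries with Poisson intervals. Pairs had 8.57-fold wild-type and 2.51-fold input tags. Clusters of over 7 sites, which had 13 or 21 and all lie at Sfi1, had 32.6-fold of both. The 13.7-fold input value at clusters of 3 includes 1288 tags from 1 cluster on chromosome 17.

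The 3 largest clusters lie in Sfi1 and just past its end, which encodes a centrin-binding protein of centrosomes, at the start of chromosome 11. Together with 3 smaller clusters they form a stretch of 73653 bp (3025832 to 3099484 in mm9) that reaches Drg1, a GTP-binding protein gene, and holds 68 clustered sites. These sites held 7.05% of the wild-type, 19.4% of the knock-out and 17.2% of the input tags of all clustered sites. The larger cluster of 21 sites by tags (3048545 to 3067102) had 301 wild-type tags, 349 knock-out tags and 394 input tags. The other cluster of 21 sites (3025832 to 3046069) had 217, 232 and 285, and the cluster of 13 sites (3076136 to 3088780) 199, 186 and 203. Summed over each cluster, all 3 libraries were high.

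The most input tags were found in a pair of other places, named after their values were seen. A cluster of 3 sites on chromosome 17 (39980487 to 39982729), 361241 to 363468 bp from Pgk2, the closest protein-coding gene, had 244, 545 and 499 input tags at its sites, against 38, 26 and 23 wild-type tags and 36, 43 and 40 knock-out tags. A pair on chromosome 2 (98502901 to 98504181), inside the predicted gene Gm10801, had tall counts in each library, with 288 and 196 wild-type tags, 292 and 204 knock-out tags and 306 and 255 input tags. These 2 clusters held 1849 of the 6838 input tags of all clustered sites, 12.7% of the knock-out tags and 4.46% of the wild-type tags. Without them the ratio of clustered to isolated sites was 1.76 in the input, 1.67 in the knock-out and 1.08 in the wild-type ChIP, and the knock-out ChIP was at 1.11 of the input (1.07 to 1.16) rather than below it. Whether these places are repeated in the genome was not tested.

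The 8 clusters with the most sites among those with fewer than 5 input tags at every site had 3 to 5 sites, and Heatr7b1 and Trpm8 on chromosome 1 held the leading 2. The first spans 5178 bp in Heatr7b1, a gene of HEAT repeats (90149974 to 90155167), where its 5 sites had 3, 3, 3, 8 and 3 wild-type tags, 6, 2, 2, 1 and 2 knock-out tags and 2, 0, 0, 1 and 4 input tags. The first 4 of these sites are intronic and the last is in a coding exon. The second lies in Trpm8, which encodes a cold-sensing ion channel (90197416 to 90201334), and its 4 intronic sites had 4, 5, 5 and 4 wild-type, 2 knock-out tags each, and 0, 2, 4 and 0 input tags. Both belong to a stretch of 71305 bp over Heatr7b1, Hjurp (a chaperone of the centromeric histone) and Trpm8 that held 9 clusters with 33 sites, and input tags there ranged from 0 to 29 per site.

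A cluster at the start of Tnk2, which encodes a non-receptor tyrosine kinase, combined wild-type and knock-out tags with almost no input (chromosome 16, 32657129 to 32660781). Its 4 sites had 5, 4, 3 and 4 wild-type tags, 3, 3, 1 and 7 knock-out tags and 0, 0, 0 and 1 input tags. The first site was 28 bp after an annotated start site, in an exon. In an intron of Tet3, an enzyme that oxidizes methylated cytosine, 4 sites (chromosome 6, 83386306 to 83390617) had 2, 3, 3 and 4 wild-type tags but 0, 0, 0 and 2 knock-out tags, with 0 to 1 input tags. With counts this low the difference between both genes in knock-out tags, 14 against 2, is given without a test.

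Upstream of Sirt4, a mitochondrial sirtuin, 4 intergenic sites between 5985 and 9062 bp from the start site had 5, 3, 3 and 3 wild-type, 1, 4, 0 and 1 knock-out and 1, 2, 0 and 1 input tags (chromosome 5, 115940711 to 115943803). In Cdyl, a chromodomain corepressor, 4 sites within 2206 bp (chromosome 13, 35907440 to 35909661) had 3, 4, 3 and 3 wild-type, 1, 1, 1 and 3 knock-out and 1, 2, 2 and 0 input tags. The remaining 2 of the 8 lie 27500 to 32162 bp from the predicted gene Gm13145 (14 wild-type, 7 knock-out and 7 input tags over 4 sites) and in an intron of 1700112E06Rik (18, 9 and 3 over 3 sites).

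**Figure D4:**
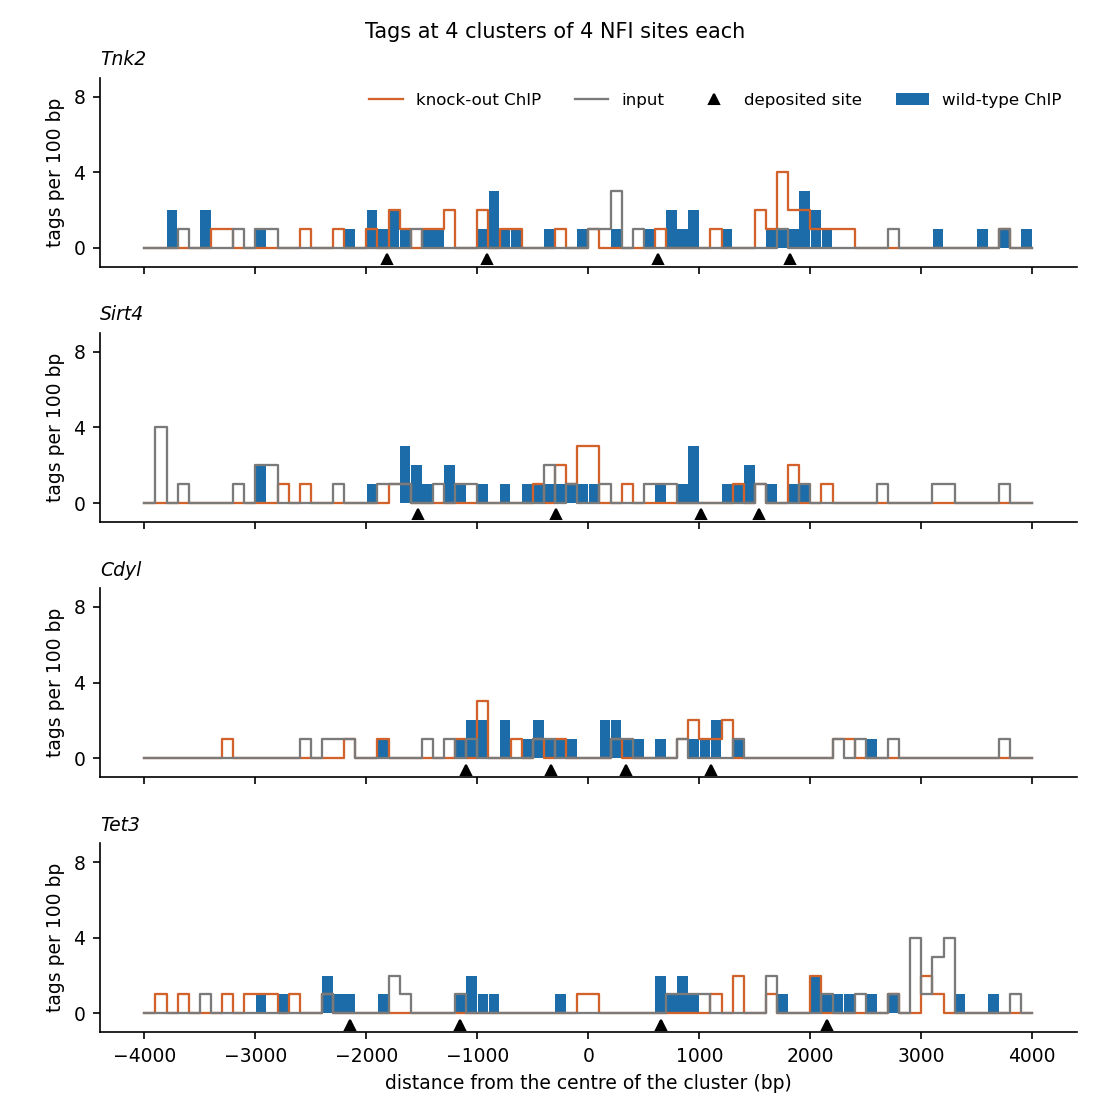
Tags per 100 bp (y axis) against the distance from the centre of the cluster (x axis, bp) at 4 clusters of 4 sites each, with wild-type tags as bars, knock-out and input tags as lines, and the deposited sites as triangles. At Tnk2 the sites held 16 wild-type tags, 14 knock-out tags and 1 input tags in all, and at Tet3 12, 2 and 3.

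Among clusters with fewer than 5 input tags at every site, the 5 with the most wild-type tags per site were pairs with 6.5 to 8 per site. At Cdh17, a cadherin gene, the pair (chromosome 4, 11746530 to 11747798) lies 1496 and 2749 bp past the gene and had 3 and 13 wild-type, 1 and 4 knock-out and no input tags. A pair 55924 and 57780 bp upstream of Tnc, the gene of tenascin C (chromosome 4, 63737676 to 63739547), had 9 and 5 wild-type, 3 and 2 knock-out and 1 and 2 input tags. A further pair (chromosome 6, 93234591 to 93236012) lies 341113 bp or more upstream of its closest protein-coding gene, Adamts9, which encodes a secreted metalloprotease. It had 4 and 9 wild-type, 1 and 2 knock-out and 0 and 3 input tags. In Slc25a21 and A2ld1 the intronic pairs had 4 and 9, and 8 and 5 wild-type tags.

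Among the sites whose sequences were shown, knock-out tags varied from none to more than wild-type. The Angpt1 pair (chromosome 15, 42438526 to 42439349) had 4 and 4 wild-type tags, 6 and 1 knock-out tags and 2 and 0 input tags, with a match at both. At the pair shared by Cir1 and Scrn3, the site without a match had 5 wild-type and 0 knock-out tags, and the site with a match 7 and 10. The Ehf pair, 43383 and 44195 bp upstream of the gene, had 4 and 8 wild-type and 0 and 6 knock-out tags, and the match is at the second site. The pair 90043 and 91086 bp past Reep3 (chromosome 10, 66383162 to 66384220) had 5 and 7 wild-type, 4 and 8 knock-out and 1 and 2 input tags, with the match at the first site. The 3 sites past 6430527G18Rik (chromosome 12, 88165273 to 88167331) had 5, 4 and 3 wild-type, 3, 5 and 1 knock-out and 1, 0 and 4 input tags, again with the match at the first. In Cd82 the 3 sites had 5, 2 and 4 wild-type and 0, 0 and 1 knock-out tags with no input tag, and the match is at the first. At Orc5 both sites lacked knock-out tags, with 6 and 5 wild-type and 2 and 0 input tags, and the match is at the first.

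Over all clustered sites the share with a palindrome differed from that of isolated sites within counting error. A match was found at 125 of the 3527 clustered sites (3.54%, 2.96 to 4.21) and 3.10% of the isolated sites, a ratio of 1.14 (0.952 to 1.37). The ratio was 1.31 (1.03 to 1.66) with 1 site per cluster and 1.17 (1.03 to 1.34) with sites joined at 5 kb, both with intervals above 1, and 0.443 (0.167 to 1.17) at sites with at least 5 wild-type tags. With at most 1 mismatch the shares were 0.709% and 0.536%. Matches anywhere on chromosomes 1 to 19 numbered 99071, and 16.3% of them had another match within 2 kb. Matches were more numerous than the in vivo sites, so this share is no measure of how often the in vivo sites should cluster.

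Shorter motifs were counted on both strands in the same 300 bp at sites with fewer than 5 input tags, and in RefSeq promoters of the same length (31396 sequences of GRCm38.p6 around gene starts). The half-site TTGGCA was found at 19.7% of clustered sites (18.3 to 21.1), 18.7% of isolated sites and 14.1% of promoters. The AP-1 element TGACTCA was found at 8.03%, 7.39% and 5.26%, and the TEAD element GGAATG at 18.1%, 17.4% and 14.6%. The half-site letters in reversed order, ACGGTT, which hold a CpG, were found at 2.81%, 2.58% and 3.60%. The intervals of clustered and isolated sites overlapped for each of these motifs.

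Clustered sites lay closer to promoters than isolated sites. Within 5 kb upstream of a protein-coding transcription start site (TSS) lay 635 clustered sites (18.0%, 16.7 to 19.3) and 10.8% of isolated sites, a ratio of 1.67 (1.55 to 1.80). Within 1 kb upstream the shares were 8.99% and 4.68%, a ratio of 1.92. Inside protein-coding genes lay 56.7% and 50.5%, a ratio of 1.12 (1.09 to 1.16). At sites with fewer than 5 input tags the upstream shares were 14.9% (13.7 to 16.2) and 10.1%, a ratio of 1.48 (1.35 to 1.61), and those inside genes 56.0% and 50.5%. Exons held 7.47% and 5.43% of these sites, introns 48.5% and 45.0%, and intergenic DNA away from a TSS 38.0% and 45.3%.

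Base composition differed slightly in the same direction. The mean G and C content of the 300 bp was 44.1% at clustered and 42.4% at isolated sites, with SDs over sites of 8.64 and 8.17. When isolated sites were weighted to the composition of clustered sites, the upstream ratio was 1.43. The median distance to a TSS was 23720 bp for clustered and 36433 bp for isolated sites.

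Of the features counted, regions rich in H3K4me3 gave the largest gap in percentage points. The deposited files hold regions that the authors called rich in a mark in MEF. H3K4me3 is a mark of promoters in use, H3K36me3 of transcribed gene bodies and H3K27me3 of Polycomb-repressed chromatin. Regions rich in H3K4me3 covered 19.9% of the genome and held 64.5% of clustered sites (62.9 to 66.1) and 41.4% of isolated sites, a ratio of 1.56. For H3K36me3 the shares were 50.5% and 34.5%, and for H3K27me3, whose regions covered 41.1% of the genome, 62.3% and 53.7%. At sites with fewer than 5 input tags the H3K4me3 shares were 61.5% (59.8 to 63.2) and 40.6%. These regions are broad, so a site inside one need not lie at a promoter.

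H3K27me3 split by what else was there. Sites in regions rich in both H3K4me3 and H3K27me3 made up 45.8% of clustered and 27.2% of isolated sites. Sites in regions rich in H3K27me3 without H3K4me3 made up 16.5% and 26.5%, the reverse order. Lamina domains, which lie at the nuclear edge and were taken by the authors from human Tig3 fibroblasts, held 23.8% of clustered (22.4 to 25.3) and 32.8% of isolated sites.

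**Figure D5:**
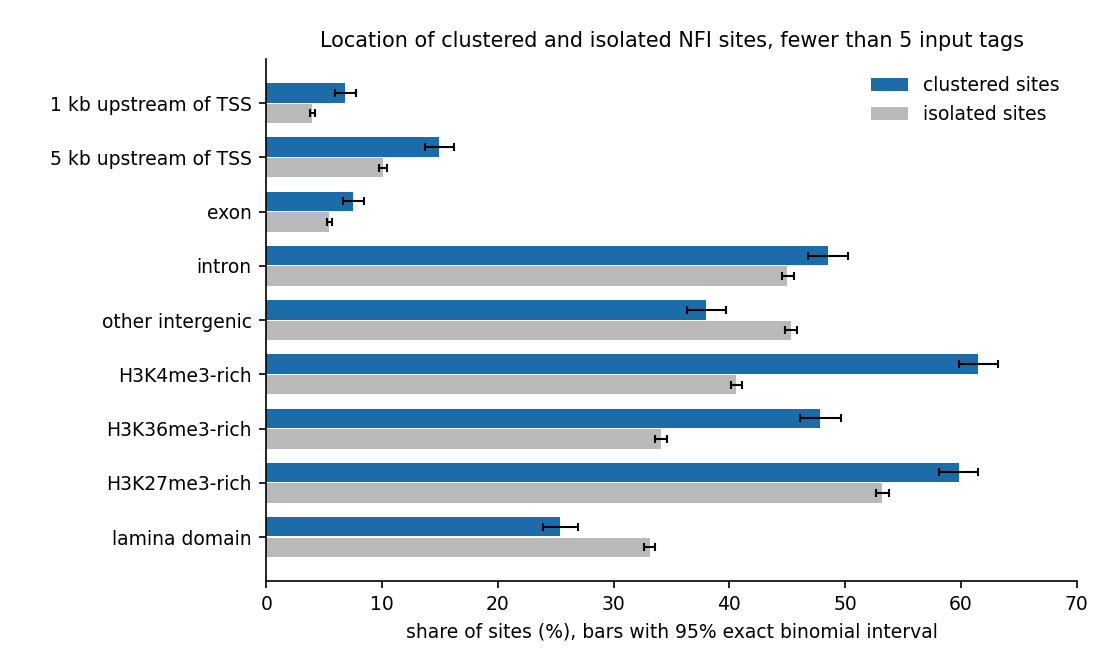
Share of sites (x axis, %) by location or domain (y axis) for clustered and isolated sites with fewer than 5 input tags, with exact binomial intervals; a site can be in several classes. H3K4me3-rich regions held 61.5% of clustered and 40.6% of isolated sites, and lamina domains 25.4% and 33.1%.

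Site density differed the same way, with more sites per Mb inside H3K4me3-rich regions and fewer inside lamina domains, which bears on how often a site has a neighbour. Inside H3K4me3-rich regions there were 35.3 sites per Mb and 13.5% of them were clustered (13.0 to 14.1). Outside there were 11.4 per Mb and 5.74% were clustered (5.44 to 6.06). Inside lamina domains there were 13.0 per Mb and 6.81% were clustered, and outside 18.2 per Mb and 10.2%. The share in H3K4me3-rich regions lay between 60.9% and 67.6% for neighbours within 2 kb, with no steady order, and was lower beyond, at 59.6% at 2 to 5 kb, 48.1% at 5 to 20 kb and 31.3% beyond 20 kb. The part of site density in the shares above was not tested.

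Among sites with fewer than 5 input tags within 5 kb upstream of a TSS, clustered sites had 3.33 wild-type tags per site and isolated sites 3.28, a ratio of 1.01 (0.962 to 1.07). Their knock-out ratio was 1.22 (1.11 to 1.34) and their input ratio 1.13 (1.03 to 1.24). In introns the ratios were 1.01, 1.24 and 1.19, and in intergenic DNA away from a TSS 1.00, 1.30 (1.22 to 1.38) and 1.13 (1.06 to 1.22). In H3K4me3-rich regions they were 0.994, 1.14 (1.09 to 1.19) and 1.12 (1.06 to 1.17), the knock-out ratio there being below the 1.25 (1.20 to 1.30) of all sites with fewer than 5 input tags.

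Longer genes held clustered sites more often. For genes, clusters were kept as in the full list, and those in which every site had fewer than 5 input tags numbered 1561, with 3214 sites, rather than the 1573 rebuilt clusters above. Between 5 kb upstream and the gene end, 954 of 21418 protein-coding genes (4.45%, 4.18 to 4.74) held such a site. The share was 1.36% of genes up to 10 kb long, 2.65% from 10 to 30 kb, 5.05% from 30 to 100 kb and 19.3% over 100 kb.

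The gene with the most was Dnm3, a dynamin of membrane scission, with 13 clustered intronic sites in 6 clusters over its 495582 bp (chromosome 1, 163912584 to 164408165). All 13 lay in H3K4me3-rich regions, as did 61.5% of all clustered sites with fewer than 5 input tags, and sites of 1 gene can share a region. The 13 sites held 43 wild-type tags, 10 knock-out tags and 7 input tags. Heatr7b1 had 13 as well in only 35304 bp, with 45, 23 and 24 tags. Pard3b, a cell polarity gene of 1003461 bp, had 11 sites in 5 clusters with 40, 7 and 7 tags, and 8 of these sites had no knock-out tag, as did 52.9% of clustered sites with fewer than 5 input tags. Kalrn and Trio, 2 related guanine nucleotide exchange factors, had 8 and 7 clustered sites, with 27 wild-type and 4 knock-out tags in Kalrn and 19 and 9 in Trio. Trpm8 had 8 sites with 40, 24 and 16 tags, and Ptprd, a receptor tyrosine phosphatase gene of 2270724 bp, 6 sites with 20, 6 and 1.

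Of the 4 NFI genes, Nfib held clustered sites (1 of 4, against 4.45% of all genes), a count too small to compare. Its 6 sites in 3 intronic pairs (chromosome 4, gene 81936077 to 82351654) had 2, 3, 3, 4, 2 and 2 wild-type tags, 0, 0, 1, 3, 2 and 2 knock-out tags and 1, 0, 1, 0, 1 and 1 input tags. The pairs were 627, 1807 and 1499 bp wide. Nfia had 19 sites, and none of them lay in a cluster with fewer than 5 input tags at every site. Over all 38625 sites, 3214 lay in such clusters. Nfix had 3 sites and Nfic, the gene disrupted in the knock-out cells, 1, also not in such clusters.

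Collagen genes, the fibres and sheets of the matrix, had clustered sites in 5 of 21 (23.8%, 8.22 to 47.2, against 4.45% of all genes). Their median length was 114371 bp, and 19.3% of all genes over 100 kb held a clustered site. Sites of any kind were found in 81.0% of the collagen genes and 42.5% of all genes. All 15 clustered sites lay in H3K4me3-rich regions, as did 61.5% of all clustered sites with fewer than 5 input tags. That share, unlike the lists, includes sites far from genes. Col1a2, a chain of type I collagen, had 5 sites in 36730 bp (chromosome 6, 4454814 to 4491543). The first 3 lie 1003, 1684 and 2734 bp after the gene start and had 3, 4 and 3 wild-type, 1, 1 and 0 knock-out and 1, 0 and 3 input tags, and the first, in a UTR, holds a palindrome match with 2 mismatches. The other 2, some way into the gene, had 2 and 2 wild-type tags. Col12a1, of a collagen that decorates fibrils, had 2 pairs with 11 wild-type tags, 2 knock-out tags and 1 input tags. At Col11a1, of a minor fibrillar collagen, a pair straddled the gene start, 828 bp before it and 203 bp after it. Both sites had 3 wild-type tags and no knock-out tag, with 0 and 3 input tags.

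Matrix glycoproteins had clustered sites in 4 of 27 genes (14.8%, 4.19 to 33.7), an interval that reaches the 4.45% of all genes. In Tnc, which had 4, a pair 3008 and 3847 bp before the gene had 3 and 3 wild-type, 0 and 0 knock-out and 1 and 1 input tags, and a pair in an intron 4 and 3, 0 and 1, and 0 and 0. Ltbp1, whose product holds latent TGF-beta in the matrix, had a pair 636 bp wide. Its sites had 4 and 2 wild-type, 1 and 2 knock-out and 1 and 1 input tags. Fbn2, a fibrillin gene, had a pair with 1 and 4 wild-type, 2 and 3 knock-out and 2 and 0 input tags.

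TGF-beta and BMP signalling genes had clustered sites in 4 of 28 (14.3%, 4.03 to 32.7), where the interval also includes the 4.45% of all genes. Of their 11 sites, 9 lay in H3K4me3-rich regions, against 61.5% of all clustered sites with fewer than 5 input tags. Smad7, an inhibitor of TGF-beta signalling, had the most, with 2 sites 4879 and 4093 bp before the gene (3 and 5 wild-type, 0 and 6 knock-out, 1 and 1 input tags) and 3 in an intron (5, 2 and 3 wild-type, 1, 0 and 4 knock-out, 1 input tag each). Its 28407 bp hold 8 sites in all with the upstream stretch. A pair also lay in Tgfbr3, a co-receptor (4 and 4 wild-type, 3 and 1 knock-out, no input tags). Another lay in Bmpr1b, a BMP receptor (2 and 4 wild-type, no knock-out, 0 and 1 input tags).

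Focal adhesion and actin genes had clustered sites in 6 of 30, with an interval of 7.71 to 38.6% against 4.45% of all genes. All 17 sites lay in introns, and of the 1813 clustered sites with fewer than 5 input tags inside any protein-coding gene 1571 did. All 17 also lay in H3K4me3-rich regions, against 61.5% of all clustered sites with fewer than 5 input tags. Lpp, a LIM protein of focal adhesions, had 2 pairs with 2 and 6, and 4 and 3 wild-type tags. It had 5 knock-out and 5 input tags in all. Actn1, an actin crosslinker, had 2 pairs with 14 wild-type tags, 3 knock-out tags and 5 input tags.

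Mesenchymal transcription factor genes had clustered sites in 5 of 27 (18.5%, 6.30 to 38.1, against 4.45% of all genes). All 19 sites lay in H3K4me3-rich regions, against 61.5% of all clustered sites with fewer than 5 input tags. Tcf4, a bHLH factor, had 8 intronic sites in 4 pairs with 25 wild-type tags, 7 knock-out tags and 4 input tags. Tbx15, a T-box factor, had 4 with 9, 1 and 3 tags, and Runx2, the osteoblast factor, 3 with 9, 1 and 2. Of the receptor tyrosine kinases and ligands of fibroblasts, 2 of 20 held clustered sites (10.0%, 1.23 to 31.7, against 4.45% of all genes). Egfr had a pair 6741 and 7961 bp after its start with 4 wild-type tags at each site, no knock-out tag, and 0 and 1 input tags. Fgfr2 had a pair with 2 and 4 wild-type and 1 and 0 knock-out tags, in a gene model annotated over 3009069 bp.

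Neuronal synapse genes, which fibroblasts use little, had clustered sites in 8 of 26 (30.8%, 14.3 to 51.8, against 4.45% of all genes). They are also the longest genes of the lists, with a median of 419889 bp. Per 100 kb they had 0.134 clustered sites, against 0.199 over all protein-coding genes. The collagens had 0.715, from 15 sites, and the mesenchymal factors 0.902, from 19 sites of which 8 lay in Tcf4. The receptor tyrosine kinases and ligands, with the long gene model of Fgfr2, had 0.0832, from 4 sites. Of sites of any kind, the synapse genes had 1.57 per 100 kb, against 2.14 over all genes. The collagens had 3.91, the mesenchymal factors 4.46 and the receptor tyrosine kinases and ligands 2.56. Of the 23 clustered sites of the synapse genes, 2 lay in H3K4me3-rich regions and 19 in lamina domains. Over all clustered sites with fewer than 5 input tags these held 61.5% and 25.4%. Cntnap2, a neuronal adhesion gene, had 2 pairs with 3 and 3, and 2 and 3 wild-type tags. It had 3 knock-out and 2 input tags in all. Nrxn3, a presynaptic neurexin, had 2 pairs with 12 wild-type tags, 2 knock-out tags and 1 input tags, and Nlgn1, a postsynaptic neuroligin, 2 with 13, 1 and 3. The wild-type tags of these genes, 69 over 23 sites, stand beside 42 over 15 sites in the collagens.

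Ribosomal protein genes, short and used in all cells, had clustered sites in 2 of 48 (4.17%, 0.509 to 14.3). That interval includes both the 4.45% of all genes and the 1.36% of genes up to 10 kb long. Per 100 kb they had 0.625 clustered sites, from 3 sites, against 0.199 over all genes. At Rps14 a site 81 bp before the gene had 4 wild-type tags, 1 knock-out tag and 3 input tags, while a site 1092 bp into it had 5, 0 and 1. At Rps9 a clustered site in a UTR had 3, 0 and 2. The intervals of the lists are wide, and the median gene length ran from 3568 bp in this list to 419889 bp in the synapse genes, against 15535 bp over all genes, so that the shares cannot be ranked. Each of the other lists had a median gene longer than that of all genes. Each also had more genes with a site of any kind, from 60.7% to 100%, against 42.5% of all genes.

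Next come clusters with fewer than 5 input tags at every site and a site within 5 kb upstream of an annotated start site. The most sites were in the Heatr7b1, Trpm8 and Tnk2 clusters above. In Heatr7b1 and Trpm8 these start sites lie inside the gene. The cluster sites lie 26421 to 31599 bp after the gene start in Heatr7b1 and 23188 to 27091 bp after it in Trpm8. At Klf6, a zinc finger factor of growth response, 3 sites within 2111 bp (chromosome 13, 5860024 to 5862150) lay 703 bp before the start site and 176 and 1408 bp after it. They had 4, 6 and 3 wild-type tags, 0, 0 and 1 knock-out tags and 4, 1 and 2 input tags. In Rab37, a small GTPase gene, 3 sites on chromosome 11 (115019968 to 115022404) had 3, 5 and 4 wild-type, 0, 4 and 0 knock-out and 0, 1 and 0 input tags, and the last 2 lay 3139 and 2258 bp upstream of Slc9a3r1, a scaffold of membrane transporters.

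Across chromosomes the clustered share ranged from 7.71% on chromosome 8 to 14.1% on chromosome 11 (12.6 to 15.6). Chromosome 11 holds the Sfi1 stretch, and among sites with fewer than 5 input tags its share was 10.5%, still the highest, while that of chromosome 8 was 7.18%, the lowest.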

How the data were processed

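Each of the 3 samples had 1 library. The authors pooled reads over flow cell channels, mapped them with ELAND (version not given in the sources used here) to mm9 (NCBI build 37), and deposited each read with its position, strand and mismatches, unnormalized and with duplicates. Counts were made here from these deposited reads. The authors also deposited the in vivo sites, found with ChIP-peak on wild-type tags (a peak threshold of 5 tags per 300 bp window, a vicinity range of 300 bp, at most 1 tag per position and the repeat filter on), as intervals of 16 bp, and histone and lamina regions paired with their closest sites. Peak calls were made on 1 library only.

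Tags on chromosomes 1 to 19 were counted by 5′ end within 150 bp of the centre, without a shift. Reads numbered 14358325, 16330049 and 12029975 for wild-type ChIP, for knock-out ChIP and for input, with 68.1%, 66.3% and 45.1% mapped to a single place. The genome average used 2393726033 bases of known sequence. Genes and TSS came from GENCODE vM1 on the same build, with all transcripts of protein-coding genes and, where a symbol of a list was annotated more than once, the longest. Intervals are exact binomial for shares and for ratios of tags, exact Poisson for folds, and use the normal approximation on the log scale for ratios of shares.

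The members, the 9 gene lists and the alternatives were chosen with earlier results of these data known. Clusters were named by the number of sites, by wild-type tags per site, by palindrome matches and by sites within 5 kb upstream, and genes by the number of clustered sites, over all genes, in each list (at most 3), and for the NFI family. No test was made. The functions were tested on simulated data. The software was Python 3.11.15 with pysam 0.24.0, pandas 2.3.3, SciPy 1.17.1, NumPy 2.4.6 and matplotlib 3.10.9. Expression data were not analysed here, and 1 gene that the naming rule selects is not reported here.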

Additional observations from a re-analysis of the deposited data

How the results depend on the processing

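With 1 library per condition, no replicate could be left out. No paired analysis was possible because each group has 1 library. Low tag counts limit single sites, and the repeat filter was not repeated. The cause of a change was not tested unless the alternative's own construction shows it. Joining at 1 kb gave a clustered share of 3.69%, a clustered over isolated ratio of 2.04 in the knock-out and 2.70 in the input, 0.873 for knock-out over input and 1.06 inside genes. Joining at 5 kb gave 21.0%, 1.50, 1.84, 0.977 and 1.17, with 1.06 in the wild-type and 1.51 within 5 kb upstream. Keeping sites with fewer than 5 input tags gave 8.56%, wild-type 1.01, knock-out 1.25, input 1.18, upstream 1.48, and a knock-out over input of 1.51, the opposite direction. Keeping sites with at least 5 wild-type tags gave 3.21%, wild-type 2.54, knock-out 9.80, input 19.2, knock-out over input 0.711, upstream 2.86, genes 1.32 and palindrome 0.443 (0.167 to 1.17). That set still held the largest Sfi1 clusters, nearly whole, and the 2 clusters with the most input tags. The palindrome interval excluded 1 with 1 site per cluster, 1.31 (1.03 to 1.66), and at 5 kb, 1.17 (1.03 to 1.34). Counting every tag gave 2.66, 8.50 and 21.7 in the wild-type, knock-out and input and 0.397 for knock-out over input; the chromosome 2 pair named in the report then held 61.9%, 81.6% and 89.6% of the tags of clustered sites in the 3 libraries. Tags without mismatch gave 1.07, 1.71 and 2.18. A 600 bp window gave 1.17 in the wild-type. With 1 site per cluster the ratios were 1.08, 1.50 and 1.74, and knock-out over input was 1.02, also the opposite direction, with an interval (0.956 to 1.08) that includes 1. Weighting to GC content gave 1.81 in the knock-out, 2.00 in the input and 1.43 upstream, and 1 kb upstream gave 1.92. Without input run 1 the input ratio was 2.83 and knock-out over input 0.761, and without input run 2 they were 2.62 and 0.857. Alternatives chosen after seeing the data left out clusters of 5 or more sites (1.07, 1.59 and 2.09, and 0.894) and the 2 clusters with the most input tags (1.08, 1.67 and 1.76, and 1.11, the opposite direction). The palindrome within the 16 bp interval gave no value, since no clustered site held one. The clustered over isolated tag ratios stayed above 1 in the alternatives run, but the wild-type interval at sites with fewer than 5 input tags (0.986 to 1.03) includes 1.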

Other observations

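The deposited microRNA lists hold 12 entries with a site in the 1 kb upstream of the transcript and 72 with a site inside it, and clustered sites were in 3 and 7 of these entries, while 9.13% of all sites are clustered. Some microRNAs have more than 1 entry, with overlapping transcripts, and an entry can hold several sites, so these counts are not shares of sites. Neither of the 2 entries with a downstream site had a clustered one. At mir-31, 1 clustered site lies in the upstream 1 kb (chromosome 4, 88576149 to 88577148), with 3 wild-type tags and neither knock-out nor input tags, and another in the transcript, with 3, 8 and 1. The upstream site of mir-181a-2 had 4 wild-type tags, 1 knock-out tag and 1 input tag, and that of mir-23b, whose transcript also carries mir-27b and mir-24-1, had 2, 2 and 3. The transcript of mir-218-2 (chromosome 11, 34934960 to 35430415) held 5 clustered sites among 22, with 22 wild-type tags, 10 in the knock-out and 3 in the input, and that of mir-28, which overlaps Lpp, 4 among 27 with 15, 5 and 5.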
